A study of Drosophila melanogaster with 6 samples.

Results

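Branched-chain amino acid degradation was followed through the 31 genes, of 17611 in the deposited table, whose pathway annotation names valine, leucine and isoleucine degradation. All 31 passed the filter on low counts and were among the 9789 genes tested. RNA came from Malpighian tubules, the excretory epithelium of Drosophila melanogaster, with 3 control and 3 tumour libraries. Control flies were esg-GAL4, UAS-GFP, tub-GAL80TS /+, and tumour flies carried UAS-yki3SA/+ in addition, so the driver, the GFP reporter and the temperature-sensitive GAL80 repressor were common to both. The driver is active in esg-positive progenitor cells, which the gut and the tubules both contain, so effects of the gut tumour and of the transgene in tubule cells cannot be told apart; yki3SA encodes activated Yorkie, a transcriptional co-activator that drives growth. Virgin flies, whose age is given only through these times, spent 6 to 8 days at 18 °C before 8 days of transgene induction at 29 °C, and 80 pooled tubules of a genotype were lysed per extraction. Nothing in the labels tells whether replicate libraries came from different cultures; p-values here reflect the spread between libraries alone, and that spread may be technical.

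Valine, leucine and isoleucine share the first reactions of their breakdown, which take place largely in mitochondria. An aminotransferase moves the amino group to 2-oxoglutarate, and the branched-chain 2-oxoacid dehydrogenase (BCKDH) complex then commits the carbon skeleton to oxidation, the step at which mammals regulate the pathway. Acyl-CoA dehydrogenases follow, after which leucine leads to acetyl-CoA and acetoacetate, isoleucine to acetyl-CoA and propionyl-CoA, and valine to propionyl-CoA. Several of the enzymes also serve fatty acid oxidation, and most roles given here are those of the mammalian enzymes to which the fly genes are annotated.

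Transcripts of the pathway were lower in tumour tubules, with at least 1 gene that fell at each step from transamination onward. Of the 31 genes 23 fell and 0 rose (edgeR quasi-likelihood test, adjusted p under 0.05), against 13.0% of all 9789 genes that fell and 14.8% that rose. At an unadjusted p under 0.05, 26 were lower and 0 higher, and by DESeq2 25 fell and by limma-voom 23, with 0 higher in each. The 26 include the acyl-CoA dehydrogenase gene Mcad, which was below 1 CPM in every library. Without 1 library between 16 and 21 genes fell, against 8.75% to 11.3% of all genes, and 0 rose; the low of 16 was without tumour replicate 2. The median log2 fold change (tumour over control) stood at -1.04 for the 31 genes and 0.08 for all genes tested, and 15 of the 23 fell by 2-fold or more. The genes of smallest change were the E1 beta subunit gene BckdhB, the acyl-CoA dehydrogenase gene Arc42, both trifunctional protein genes, the thiolase gene Acat2, Hmgs and Ndf. Levels are in CPM, the count of a gene relative to the TMM-scaled library total. They are given for replicates 1, 2 and 3 of each group in that order. The SE is that of the log2 fold change. A range given over all alternatives spans the adjusted p of every alternative setting. For each gene with such a range, the upper end came from the test against a fold of 1.5. That test asks whether the change exceeds this fold, not whether there was any change.

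**Figure D1:**
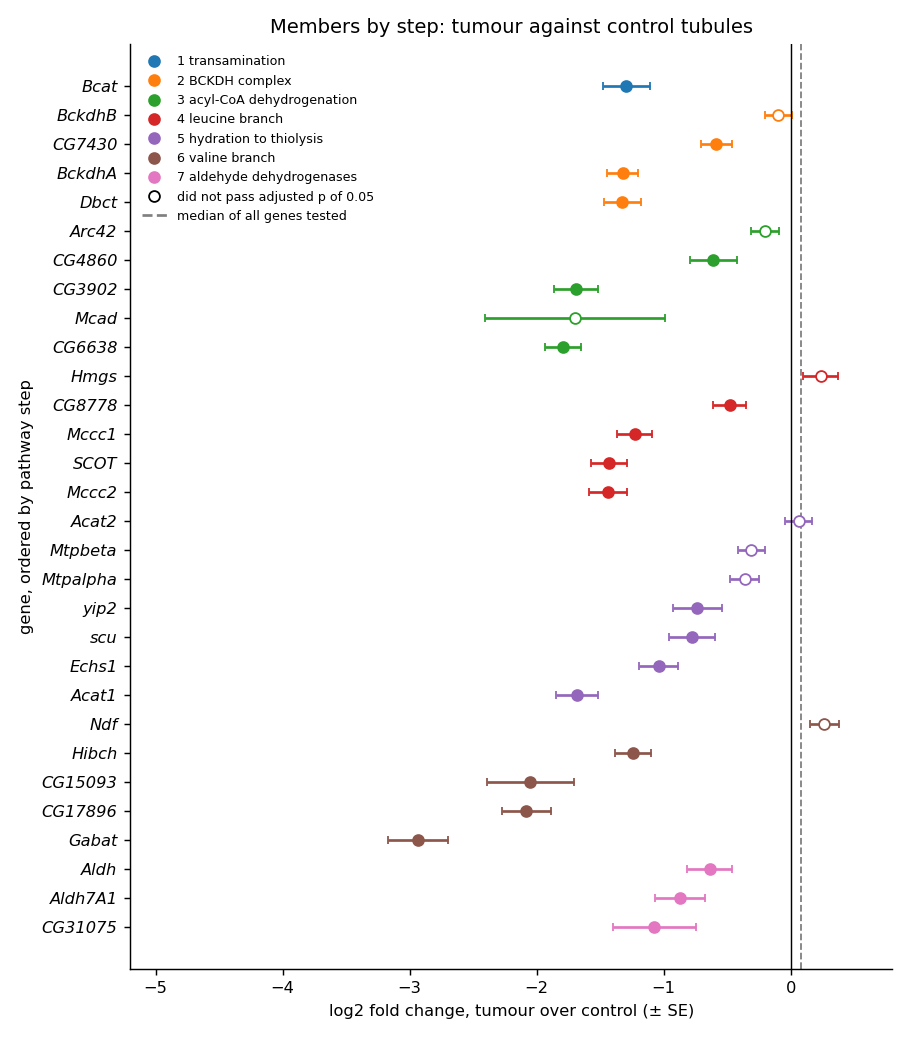
Log2 fold change of tumour over control tubules with its SE for 30 of the 31 genes, grouped by pathway step and ordered within it. Filled points passed an adjusted p of 0.05, open points did not, and the dashed line is the median of all genes tested at 0.08; the 22 filled points all lie below 0, from CG8778 at -0.48 to Gabat at -2.93.

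Library totals lay between 34640437 and 49338340 counts. Thus 3 counts, the upper limit for a gene with 0 counts, equal 0.0608 to 0.0866 CPM of the total without TMM scaling (counting error only). The transcript of yki, the gene in the transgene, was at 79.6, 63.5 and 79.4 CPM in control and 84.4, 90.9 and 76.9 CPM in tumour libraries (log2 fold change 0.18, adjusted p = 0.331, edgeR). With library totals alone it was 0.47 (adjusted p = 0.0146, with 0.0146 to 0.99999 over all alternatives), so this transcript gives no firm check of the labels. The tubule's own defining markers were present: 12 principal cell markers summed to 18158 to 25282 CPM in control and 11554 to 14301 CPM in tumour libraries (5 fell), and 8 stellate cell markers to 1487 to 1658 CPM and 1083 to 1240 CPM (3 fell). RNA of other organs was also present and differed between the groups. The 31 midgut markers summed to 521 to 1465 CPM in control and 32.5 to 166 CPM in tumour libraries (20 of 28 tested fell, 1 rose), the 10 fat body markers, mainly yolk protein genes, to 2479 to 5831 CPM and 181 to 360 CPM (5 of 9 fell), and the 13 germline and eggshell markers to 121 to 281 CPM and 4.72 to 12.4 CPM (10 of 13 fell). The 12 muscle markers summed to 859 to 907 CPM and 861 to 997 CPM (1 rose and, in the edgeR test, 0 fell, with 3 lower at an unadjusted p under 0.05, 2 by DESeq2 and 1 by limma-voom). No listed marker of these tissues was at 0 in all libraries. The part of this tissue RNA in the results below was not tested. In bulk RNA, fewer cells of a type and less RNA per cell cannot be told apart.

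The genes of the pathway belonged to the more abundant transcripts of the tubule. Their median level was 101 CPM over all libraries, against 17.3 CPM for all genes tested, and 16 of them exceeded 100 CPM in the control mean. Together they held 0.780%, 0.646% and 0.664% of counts in control and 0.412%, 0.390% and 0.373% in tumour libraries. The groups did not overlap in this share. Of the 31 genes 26 had every tumour library below every control library and 1 (Ndf) every tumour library above, against 20.1% and 26.8% of all genes tested. The 26 include Mcad, at 23, 12 and 22 counts in control and 2, 10 and 11 in tumour libraries. Mcad passed the filter on low counts only through its control libraries. The coefficient of variation between libraries had a median of 15.2% in control and 9.53% in tumour. Control replicate 1 was the highest control library for 23 genes, and tumour replicate 3 the lowest tumour library for 18. The summed principal cell markers were likewise highest in control replicate 1 (25282 CPM) and lowest in tumour replicate 3 (11554 CPM), as were the midgut markers (1465 and 32.5 CPM). Fat body markers were highest in control replicate 3 (5831 CPM) and lowest in tumour replicate 3 (181 CPM).

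**Figure D2:**
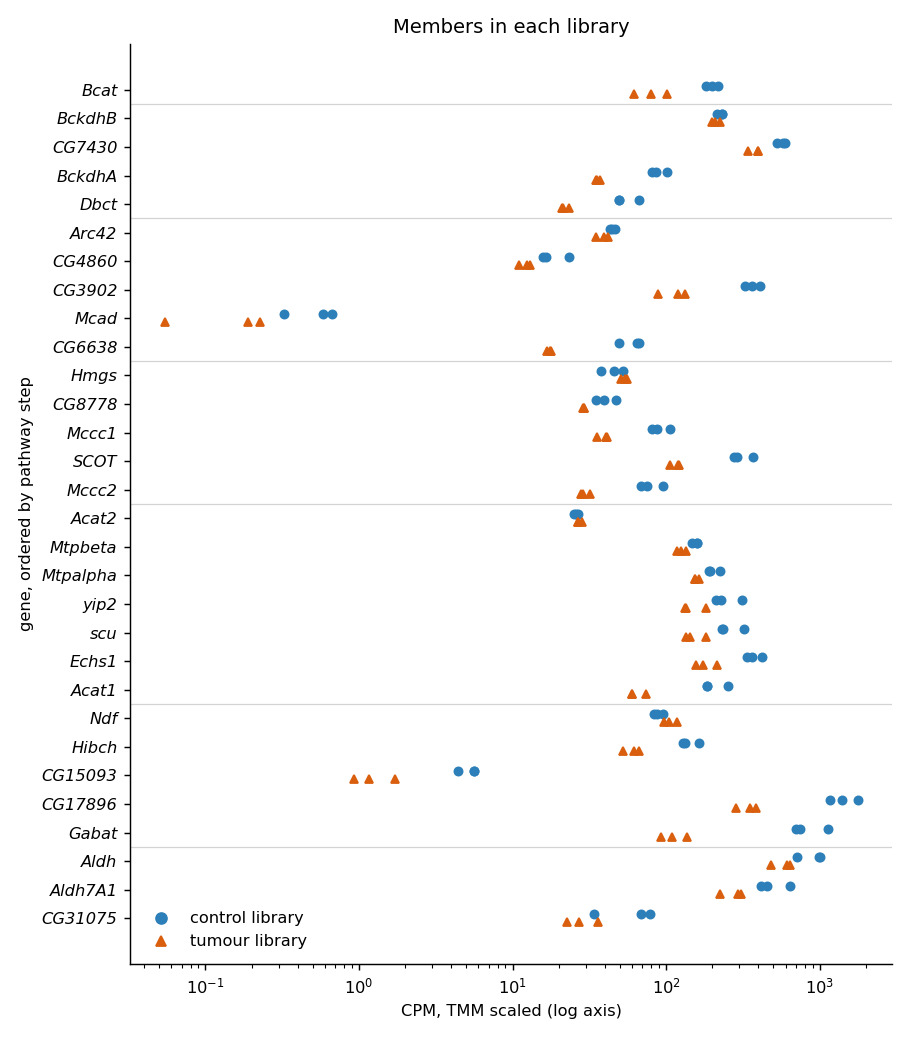
Level of 30 of the 31 genes in each library, in CPM on a log axis, with circles for control and triangles for tumour libraries and grey lines between pathway steps. Circles and triangles are apart for most genes and overlap for BckdhB, Hmgs, Acat2 and CG31075; for Ndf every triangle lies above the circles.

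The first, reversible step rests on 1 gene. Bcat (FBgn0030482, X chromosome, 13396899 to 13401224 in BDGP6), which encodes the branched-chain aminotransferase, was at 218, 181 and 198 CPM in control and 101, 80.4 and 61.9 CPM in tumour libraries. Every tumour library was below every control library. Bcat fell 2.45-fold (log2 fold change -1.30 ± 0.18, adjusted p = 0.00193, edgeR), and the call held in each of the 6 fits that left out 1 library.

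In the BCKDH complex, 3 of 4 subunit genes fell and 1 did not pass. The complex is built around an E2 core that carries lipoate, with E1, a heteromer of alpha and beta subunits, performing the decarboxylation and E3 reoxidising the lipoate. BckdhA (FBgn0037709, chromosome arm 3R, 9555785 to 9557776), the E1 alpha gene, was at 102, 86.3 and 81.6 CPM in control and 35.7, 34.8 and 37.3 CPM in tumour libraries. It fell 2.50-fold (log2 fold change -1.32 ± 0.12, adjusted p = 0.000304). Dbct (FBgn0030612, X chromosome, 15086125 to 15088629), the E2 gene, was at 66.3, 49.7 and 49.1 CPM and 21.1, 21.4 and 23.4 CPM. It fell by nearly the same factor, 2.51-fold (log2 fold change -1.33 ± 0.15, adjusted p = 0.000657). CG7430, annotated to E3, a subunit that other 2-oxoacid dehydrogenase complexes and the glycine cleavage system also use, was at 598, 579 and 531 CPM and 398, 396 and 344 CPM. It fell by a smaller factor (log2 fold change -0.59 ± 0.12, adjusted p = 0.00977). For all 3 genes the groups did not overlap, and the tumour libraries of BckdhA lay within 3 CPM of each other.

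BckdhB, the E1 beta gene, stood apart from its partner subunit. It was at 231, 215 and 230.1 CPM in control and 225, 199 and 208 CPM in tumour libraries, and the groups overlapped. Its log2 fold change was -0.10 ± 0.11 (adjusted p = 0.545), and it was 0.19 when scaled by library totals alone (adjusted p = 0.175, with 0.175 to 0.99999 over all alternatives). Ratios taken within a library do not depend on the scaling. Per exon length, the ratio of BckdhA to BckdhB was 0.351, 0.320 and 0.282 in control and 0.126, 0.139 and 0.143 in tumour libraries, so that every tumour library was below every control library. The ratio of Dbct to BckdhA was 0.608, 0.539 and 0.562 in control and 0.552, 0.576 and 0.586 in tumour libraries, which overlapped. The ratio of CG7430 to Dbct was higher in tumour, at 15.7, 15.4 and 12.2 against 7.49, 9.67 and 9.01. These ratios were chosen after the gene values were known and were not tested.

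**Figure D3:**
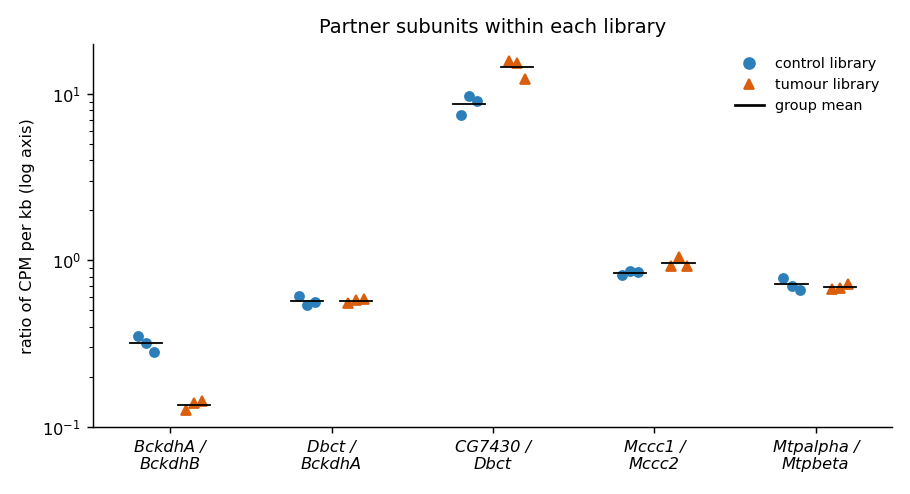
Ratio of the levels per exon length of partner subunits within each library, on a log axis, with circles for control libraries, triangles for tumour libraries and a line at each group mean. The groups are apart for BckdhA to BckdhB (means 0.318 and 0.136), for CG7430 to Dbct (8.72 and 14.4) and, by a smaller factor, for Mccc1 to Mccc2 (0.840 and 0.969); they overlap for Dbct to BckdhA and for Mtpalpha to Mtpbeta.

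Of the 5 acyl-CoA dehydrogenase genes 3 fell and 2 did not pass. CG6638 (FBgn0035911, chromosome arm 3L, 8574407 to 8576078), annotated to isovaleryl-CoA dehydrogenase of the leucine branch, was at 67.0, 49.4 and 64.6 CPM in control and 17.5, 16.8 and 17.9 CPM in tumour libraries. It fell 3.47-fold (log2 fold change -1.79 ± 0.14, adjusted p = 0.000169). CG3902, annotated to the short/branched-chain dehydrogenase that in mammals acts on the isoleucine product, was at 407, 325 and 364 CPM and 132, 119.5 and 88.2 CPM. It fell 3.23-fold (log2 fold change -1.69 ± 0.17, adjusted p = 0.000487). Neither group pair overlapped, and both calls held without any 1 library. The exons of CG3902 overlap 159 bp of NijB on the other strand; whether counting used strand is not given in the sources used here.

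Of the 3 genes annotated to straight-chain dehydrogenases 1 fell, and no test compared them with the branched-chain ones. CG4860, annotated to the short-chain enzyme, was at 15.7, 23.3 and 16.6 CPM in control and 12.4, 13.0 and 11.0 CPM in tumour libraries (log2 fold change -0.61 ± 0.18, adjusted p = 0.0413), and 288 bp of its exons overlap an antisense RNA gene. The call held without control replicate 1 and did not hold without any other single library (adjusted p of 0.0683 to 0.116, with 0.0124 to 0.733 over all alternatives). Arc42, a second gene with the same annotation, was at 46.2, 44.6 and 43.4 CPM and 42.0, 35.2 and 39.3 CPM. Its log2 fold change of -0.20 ± 0.11 did not pass (adjusted p = 0.212), and it was 0.08 with library totals alone (adjusted p = 0.617, with 0.0828 to 0.99999 over all alternatives). Mcad, annotated to the medium-chain enzyme, was below 1 CPM in every library (0.583, 0.325 and 0.668 against 0.0544, 0.227 and 0.19 CPM). Its groups did not overlap, but its log2 fold change of -1.70 ± 0.71 did not pass (adjusted p = 0.109), and 1353 bp of its 1461 bp of exon overlap CG7457.

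In the leucine branch 5 of 6 genes fell, among them those of its carboxylase, its hydratase and the ketoacid transferase, and 3 did so without tumour replicate 2. Mccc1 (FBgn0039877, chromosome arm 3R, 31790592 to 31793907) and Mccc2 encode the alpha and beta subunits of the biotin-dependent methylcrotonoyl-CoA carboxylase. Mccc1 was at 106, 80.6 and 87.3 CPM in control and 35.2, 41.1 and 40.4 CPM in tumour libraries, and fell 2.35-fold (log2 fold change -1.23 ± 0.14, adjusted p = 0.000663). Mccc2 was at 95.7, 68.7 and 75.7 CPM and 28.0, 28.6 and 31.9 CPM, and fell 2.71-fold (log2 fold change -1.44 ± 0.15, adjusted p = 0.000478). Both subunits were thus lower in every tumour library than in any control library. Per exon length the ratio of Mccc1 to Mccc2 was 0.840 ± 0.0242 (SD) in control (n = 3) and 0.969 ± 0.0740 in tumour libraries (n = 3).

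CG8778, annotated to methylglutaconyl-CoA hydratase, was at 46.9, 39.6 and 34.8 CPM in control and 28.9, 29.0 and 29.0 CPM in tumour libraries. Its fall of 1.40-fold (log2 fold change -0.48 ± 0.13, adjusted p = 0.0305) held without control replicate 3 and did not hold without any other single library (adjusted p of 0.0503 to 0.0901, with 0.00428 to 0.99999 over all alternatives). SCOT (FBgn0035298, chromosome arm 3L, 1963143 to 1966805), the succinyl-CoA transferase gene of acetoacetate use, was at 366, 290.1 and 279 CPM and 121, 120.1 and 106 CPM. SCOT fell 2.70-fold (log2 fold change -1.43 ± 0.14, adjusted p = 0.000408) with no overlap between groups, although 709 bp of its exons overlap other genes, 1 of them on the same strand.

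Hmgs, the HMG-CoA synthase gene, carries the pathway annotation but is known in flies for the mevalonate pathway of isoprenoid synthesis. It was at 37.9, 52.3 and 46.1 CPM in control and 50.5, 55.7 and 54.0 CPM in tumour libraries, and the groups overlapped. Its log2 fold change of 0.23 ± 0.14 did not pass (adjusted p = 0.245). Of the 31 genes Hmgs and Ndf, described below, were the 2 that rose with library totals alone as the scaling (adjusted p = 0.0393 for Hmgs and 0.0139 for Ndf, with up to 0.99999 for each over all alternatives), a scaling that raised the median log2 fold change of all genes by 0.29 and under which 31.5% of all genes rose and 8.48% fell.

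The reactions from hydration to thiolysis rest on 7 genes, all but scu also annotated to fatty acid degradation. Of these 7 genes 4 fell and 3 did not pass. Without tumour replicate 2, 2 fell. Echs1, which encodes short-chain enoyl-CoA hydratase, was at 420.2, 361 and 336 CPM in control and 213, 174 and 157 CPM in tumour libraries (log2 fold change -1.04 ± 0.15, adjusted p = 0.00241). scu, the 3-hydroxyacyl-CoA dehydrogenase type 2 gene whose human counterpart oxidises an isoleucine intermediate, was at 323, 231 and 236 CPM and 183, 135 and 142 CPM. It fell 1.72-fold (log2 fold change -0.78 ± 0.18, adjusted p = 0.0156), which did not pass without tumour replicate 2 (0.0561, with 0.000161 to 0.311 over all alternatives). In Echs1 and scu control replicate 1 was the highest library and the groups did not overlap.

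The thiolases differed among themselves. Acat1 (FBgn0029969, X chromosome, 7887130 to 7888785) is annotated to acetyl-CoA acetyltransferase, whose mitochondrial form in mammals ends isoleucine breakdown. It was at 254, 186 and 184 CPM in control and 74.0, 60.5 and 59.9 CPM in tumour libraries. It fell 3.21-fold (log2 fold change -1.68 ± 0.17, adjusted p = 0.000402) and held without any 1 library. Acat2, with the same orthology annotation, was at 26.0, 25.2 and 26.9 CPM and 26.6, 26.7 and 28.2 CPM. Its groups overlapped (log2 fold change 0.06 ± 0.11, adjusted p = 0.705), and its direction flipped to -0.01 with RLE scaling or DESeq2. yip2, a 3-ketoacyl-CoA thiolase gene, was at 312, 226 and 210.1 CPM and 182, 134 and 134 CPM. It fell 1.66-fold (log2 fold change -0.73 ± 0.19, adjusted p = 0.0258), which no longer passed once control replicate 1 (0.0671), tumour replicate 2 (0.0826) or tumour replicate 3 (0.0725) was left out (with 0.000964 to 0.426 over all alternatives).

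Mtpalpha and Mtpbeta encode the subunits of the mitochondrial trifunctional protein, which is known for the oxidation of long-chain fatty acids. Mtpalpha was at 226, 189 and 192 CPM in control and 165, 154 and 153 CPM in tumour libraries (log2 fold change -0.36 ± 0.12, adjusted p = 0.0501). Mtpbeta was at 159, 148 and 159.7 CPM and 134, 124 and 117 CPM (log2 fold change -0.31 ± 0.11, adjusted p = 0.0624). Both lay at the edge of the threshold with no overlap between groups, and both passed with RLE or upper-quartile scaling, with the 5 CPM filter and by DESeq2, as did Mtpbeta without tumour replicate 1 (adjusted p of 0.00616 to 0.0373 for Mtpalpha and 0.0161 to 0.0497 for Mtpbeta, against up to 0.99999 for each over all alternatives). With library totals alone neither passed. The log2 fold change was then -0.07 for Mtpalpha (adjusted p = 0.587, edgeR) and -0.03 for Mtpbeta (adjusted p = 0.843, edgeR). The ratio of Mtpalpha to Mtpbeta per exon length averaged 0.719 ± 0.0613 (SD, n = 3) for control and 0.694 ± 0.0248 (SD, n = 3) for tumour.

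The valine branch held the 3 genes of largest fall among the 31, and 4 of its 5 genes fell. Gabat (FBgn0036927, chromosome arm 3L, 19997714 to 20000686), the 4-aminobutyrate aminotransferase gene, is placed here because its mammalian enzyme also acts on an amino acid derived from valine and thymine, and it is otherwise known for GABA breakdown. It was at 1138, 751 and 705 CPM in control and 109, 138 and 92.8 CPM in tumour libraries. Gabat fell 7.64-fold (log2 fold change -2.93 ± 0.24, adjusted p = 0.000208). CG17896 (FBgn0023537, X chromosome, 490787 to 493495), annotated to methylmalonate-semialdehyde dehydrogenase, which yields propionyl-CoA, was at 1774, 1174 and 1401 CPM and 387, 353 and 287 CPM. It fell 4.23-fold (log2 fold change -2.08 ± 0.19, adjusted p = 0.000304). Both genes were among the most abundant of the pathway in control tubules, and the lowest control library of each lay above 3 times the highest tumour library of that gene.

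Hibch, the 3-hydroxyisobutyryl-CoA hydrolase gene, was at 164, 129 and 134 CPM in control and 66.9, 61.5 and 52.5 CPM in tumour libraries (log2 fold change -1.24 ± 0.14, adjusted p = 0.000746), and 725 bp of its exons overlap Cog2. CG15093, annotated to 3-hydroxyisobutyrate dehydrogenase, was at only 5.62, 4.44 and 5.65 CPM and 1.71, 1.16 and 0.931 CPM. It fell 4.14-fold (log2 fold change -2.05 ± 0.34, adjusted p = 0.00399), but 1137 bp of its single 1310 bp exon overlap an antisense RNA gene. If counting ignored strand, which is not known, reads of CG15093 and its antisense partner cannot be told apart. All 4 calls of the branch held without any 1 library. Ndf shares the 3-hydroxyisobutyrate dehydrogenase orthology term with CG15093, yet its protein entry in the table is a homologue of GLYR1, and Ndf is known as a nucleosome-destabilising factor. Ndf was at 87.6, 83.8 and 96.0 CPM in control and 97.7, 105 and 118 CPM in tumour libraries, higher in each tumour library than in any control library (log2 fold change 0.26 ± 0.12, adjusted p = 0.126).

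The 3 aldehyde dehydrogenase genes carry broad annotations that span 13 other pathways each, and all 3 fell; scaling by library totals alone left 1 of them, Aldh7A1, and so did leaving out any of control replicate 1 and tumour replicates 2 and 3. Aldh, the gene of the mitochondrial enzyme known in flies for the removal of acetaldehyde, was at 987, 713 and 1009.9 CPM in control and 644, 617 and 480.4 CPM in tumour libraries. It fell 1.56-fold (log2 fold change -0.64 ± 0.18, adjusted p = 0.0320). This call was lost without control replicate 1 (0.0955), control replicate 3 (0.106), tumour replicate 2 (0.0660) or tumour replicate 3 (0.0815), with 0.00207 to 0.650 over all alternatives. Aldh7A1, annotated to a family whose human member acts in lysine breakdown, was at 639.6, 457 and 418 CPM and 308, 294 and 226 CPM (log2 fold change -0.87 ± 0.20, adjusted p = 0.0144), and held without any 1 library; 735 bp of its exons overlap other genes. CG31075 was at 78.3, 68.8 and 33.99 CPM and 27.1, 36.2 and 22.7 CPM; it was the 1 gene that passed with overlapping groups (log2 fold change -1.07 ± 0.33, adjusted p = 0.0499). The call of CG31075 held without control replicate 3 (0.0072) and was lost without any other library, where the adjusted p lay between 0.0518 and 0.145 (0.00139 to 0.253 over all alternatives).

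Summed per exon length, the level of the valine branch was 1412, 955 and 1044 CPM per kb in control and 292, 288 and 238 CPM per kb in tumour libraries. Its share of the summed level of the 31 genes averaged 27.8% ± 1.77 (SD, n = 3) for control and 14.1% ± 0.637 (SD, n = 3) for tumour. The share of the BCKDH complex was 12.3% ± 1.17 and 18.3% ± 1.05, with BckdhB and CG7430 as its most abundant subunits. The share of the leucine branch was 6.76% ± 0.251 and 6.91% ± 0.612. The groups overlapped in the leucine share and not in the shares of the valine branch or the BCKDH complex. By level per exon length CG17896 ranked 1 of 31 in control and 4 in tumour, Gabat 3 and 13, Aldh 2 and 1, and BckdhB 10 and 5. These sums describe the libraries and were not tested.

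**Figure D4:**
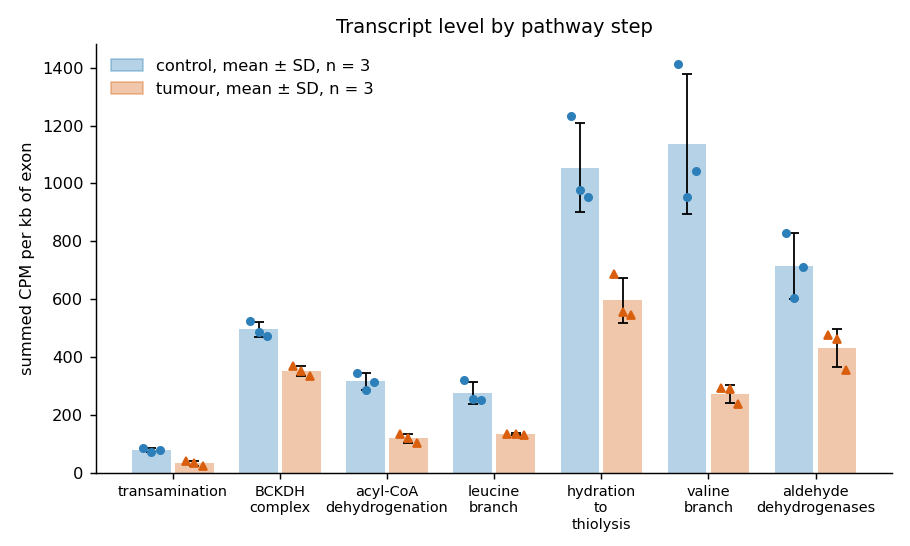
Summed transcript level per pathway step in CPM per kb of exon, with bars at the mean of 3 control or 3 tumour libraries, error bars of 1 SD and points for single libraries. The valine branch has the highest control mean (1137 CPM per kb) and falls to 272 CPM per kb, while the BCKDH complex goes from 495 to 352 CPM per kb.

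The 31 genes were split by whether their annotation also names fatty acid degradation. Of the 18 genes without that annotation 15 fell (83.3%), with a median log2 fold change of -1.27. Of the 13 shared genes 8 fell (61.5%), with a median of -0.73, against 13.0% of all genes tested. With library totals alone the counts were 14 and 4, and without 1 library they lay between 12 and 15 and between 4 and 7, with 4 without tumour replicate 2 or tumour replicate 3. Of the 6 genes annotated to this pathway and no other (CG6638, Mccc1, Mccc2, CG8778, CG15093 and Ndf) 5 fell, all but Ndf. The difference between these sets was not tested.

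Related pathways, taken by annotation alone and with the shared genes left out, gave their own counts from the same libraries. Not all of their genes encode mitochondrial enzymes. In the TCA cycle 18 of 28 genes fell and 1 rose, with a median log2 fold change of -0.64. Of 17 remaining genes of fatty acid degradation 5 fell and 0 rose (median -0.30), of 24 of lysine degradation 4 fell and 2 rose (median -0.04), and of 7 of propanoate metabolism 2 fell and 0 rose (median -0.34). Library totals alone gave 14 falls and 1 rise in the TCA cycle, and 4 falls and 5 rises among the fatty acid genes. Under that scaling 8.48% of all genes fell and 31.5% rose. These pathways are described by their counts, beside the 13.0% of all genes that fell, and no difference between them was tested.

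**Figure D5:**
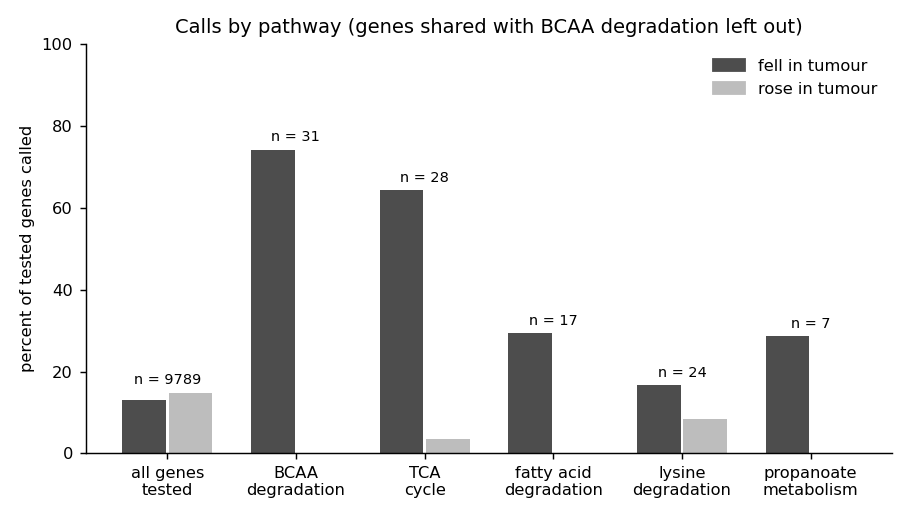
Percent of tested genes that fell (dark) or rose (light) in tumour tubules at an adjusted p of 0.05, for all genes tested, the 31 genes of branched-chain amino acid (BCAA) degradation, and 4 related pathways without the genes they share with it. The share that fell was 74.2% for BCAA degradation, 64.3% for the TCA cycle and 29.4% or less for the other 3 pathways.

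Lists of partner genes were counted beside the 13.0% of all genes that fell and the 14.8% that rose. Electrons from the acyl-CoA dehydrogenases pass to the electron transfer flavoprotein and its quinone reductase. The 6 genes listed were of electron transfer, cofactor attachment and, with Pdk, a regulatory kinase. Of these 6 genes 3 fell and 0 rose, and the 3 that fell form the electron relay. Etfb, encoding the beta subunit, went from 636 ± 21.5 (SD, n = 3) down to 282 ± 47.0 CPM (SD, n = 3; log2 fold change -1.17 ± 0.14, adjusted p = 0.00102, edgeR). Etf-QO, encoding the quinone reductase, went from 175 ± 22.3 down to 90.6 ± 3.97 CPM (SD, n = 3 each, adjusted p = 0.00135, edgeR), and wal, the alpha subunit gene, named after its values were seen, fell 1.45-fold (adjusted p = 0.0196). Leaving out control replicate 1, tumour replicate 2 or tumour replicate 3 left 2 of this list lower, as did library totals alone. Among 11 genes of glutamate, glutamine and proline enzymes, which handle the amino group, 5 fell and 0 rose. One of the 5 is Gabat, described above among the 31 genes, and of the 10 that are not among them 4 fell and 0 rose. CG1640, annotated to alanine aminotransferase, fell 1.59-fold (adjusted p = 0.0115). With library totals alone 2 of these 10 fell and 1 rose, against 8.48% and 31.5% of all genes.

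Of 9 tested amino acid transporter genes 2 rose and 1 fell, against 14.8% and 13.0% of all genes. This list is not limited to carriers of branched-chain or other neutral amino acids. NAAT1, a nutrient amino acid transporter gene, rose from 102 ± 19.1 to 308 ± 35.4 CPM (SD, n = 3 each; log2 fold change 1.59 ± 0.17, adjusted p = 0.000491, edgeR), and CG5535 rose 1.35-fold (adjusted p = 0.0210). The 1 gene that fell, path, named after its values were seen, had an adjusted p of 0.0495. Without 1 library 1 or 2 of the transporter genes rose and 0 to 3 fell. Only the fit without control replicate 2 gave any that fell. In these fits 8.58% to 12.1% of all genes rose and 8.75% to 11.3% fell. With library totals alone 4 transporter genes rose and 0 fell in the edgeR test, against 31.5% and 8.48% of all genes. Of 17 genes of amino acid sensing through TORC1, the kinase complex that promotes growth when amino acids are present, 5 rose, against 14.8% of all genes, and 0 fell by edgeR, DESeq2 or limma-voom or at an unadjusted p under 0.05. RagA-B, a GTPase gene of the lysosomal sensor, rose from 28.3 ± 1.09 to 54.7 ± 9.30 CPM (SD, n = 3 each; log2 fold change 0.95 ± 0.14, adjusted p = 0.00244, edgeR). Lst8, a TORC1 subunit gene, rose 1.46-fold (adjusted p = 0.0158). Tsc1, an inhibitor of TORC1 named after its values were seen, was also among the 5 (log2 fold change 0.42 ± 0.12, adjusted p = 0.0330, edgeR). The list holds activators, inhibitors and targets of TORC1 together, so its count gives no direction for the activity of the complex. Between 1 and 4 of the 17 sensing genes rose without 1 library, where 8.58% to 12.1% of all genes rose. The count was 1 without tumour replicate 3, 2 without replicate 1 of either group, and 3 without control replicate 3 or tumour replicate 2. With RLE scaling 3 rose, against 11.6% of all genes, and with library totals alone 10, against 31.5% of all genes.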

How the data were processed

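RNA whose integrity number exceeded 7 was enriched for poly-A transcripts and sequenced as TruSeq libraries, per the labels. The authors deposited raw read counts per gene, 1 column per library, with protein, orthology and pathway annotation. TopHat, Cufflinks and HTSeq appear in the submitters' processing notes; their versions, the genome build and the strandedness of counting are not known here. Coordinates and merged exon lengths, used for CPM per kb, came from Ensembl BDGP6 by gene identifier. There, exons of 18 members overlap another gene, which makes their counts less certain.

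Tumour was compared with control in edgeR 4.0.16 (R 4.3.3) with filterByExpr (minimum count 10, minimum total 15), TMM and the robust quasi-likelihood test, two-sided, with Benjamini-Hochberg adjustment over 9789 genes and a threshold of 0.05. Each SE is the size of the log2 fold change over the square root of F. Variation between libraries beyond counting error, which may be technical, had a coefficient of 30.8%. Alternatives used edgeR, DESeq2 1.42.0 or limma 3.58.1; counts by step and list under them were added after the data were seen. The test was run on simulated data first. Tables used Python 3.11.15 and pandas 2.3.3.

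Members and lists were chosen with earlier results of these data known. Every member is named except 1, which is counted but not reported singly here, steps follow the enzyme annotation, and up to 2 genes of each of 4 partner lists are named by smallest adjusted p. Of 174 listed symbols 14 had no match. Of the marker lists not described in the results, 2 of 6 tested haemocyte markers fell, and of 6 enteroendocrine markers 1 fell and 2 rose. Trachea, neuron and progenitor markers gave 0 calls in edgeR, with 1, 1 and 1 at an unadjusted p under 0.05, 0, 1 and 0 by DESeq2 and 1, 1 and 0 by limma-voom.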

Additional observations from a re-analysis of the deposited data

How the results depend on the processing

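The 23 members that fell numbered 25 with RLE or upper-quartile scaling or DESeq2, 22 to 24 with no filter, a 5 CPM filter, the 20 most abundant genes left out or limma-voom, and 18 with library totals alone, where 2 rose and the median log2 fold change of members was -0.76. All 18 were among the 23, and under this scaling 8.48% of all genes fell and 31.5% rose. Against a fold of 1.5, 14 members and 816 genes of all passed; at an adjusted p of 0.01, 15 and 1197. Without members with overlapping exons 10 of 13 fell (median -0.73), and without those shared with fatty acid degradation 15 of 18 (median -1.27). Leaving out 1 library gave 16 to 21 falls and 0 rises, medians of -1.11 to -0.84, and 1769 to 2364 genes of all past the threshold, lowest without control replicate 3; 16 members fell in all 6 such fits. Of the single members, Acat2 reversed with RLE (-0.0064) and DESeq2 (-0.0062), and BckdhB (0.19) and Arc42 (0.083) with library totals alone. The labels number replicates 1 to 3 in both groups and do not say whether the numbers pair libraries. Same-numbered libraries deviated together only weakly (correlations 0.12, -0.02 and 0.05), which cannot settle it, and the main test used no pairing. With a replicate block 23 members fell, 22 of them shared with the test without it, and 0 rose. Mtpalpha passed with the block at an adjusted p of 0.0425 (edgeR) and Aldh did not at 0.050002. The median log2 fold change of members was -1.01 with the block, and 2538 genes of all passed. Depth limits Mcad and CG15093, with levels of a few CPM or less.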
